A study of Mus musculus with 6 samples.

Results

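The genes of salt transport in the thick ascending limb and distal convoluted tubule were examined in renal cortex of mice with unilateral ischemia-reperfusion injury (UIRI). The set was chosen by gene symbol and named 9 genes. Of these, 8 were measured among 19176 rows of the expression table: Umod, Slc12a1, Kcnj1, Bsnd, Slc12a3, Wnk1, Wnk4 and Stk39. Pvalb, a calcium-binding protein of the early distal convoluted tubule, was not analysed here. All mice were wild-type C57BL/6J males, young adults according to the methods, whose left renal pedicle had been clamped for a period and then released. The UIRI group (n = 3) received daily intraperitoneal vehicle, ethanol in saline. The UIRI + BA group (n = 3) received bruceine A (BA), a quassinoid of Brucea javanica that the labels spell brucine A, at 1 mg/kg each day by the same route. Tissue was taken on day 14, and the methods state that the uninjured right kidney had been removed on the preceding day in the animals of this model. No sham library was analysed here, so the values compare BA with vehicle after injury and say nothing of the injury itself. The labels do not state that each library came from a separate animal, but the paper describes the 3 libraries per group as independent biological replicates. The p-values measure the spread between these libraries.

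In the thick ascending limb, sodium, potassium and chloride enter the cell together from the tubular fluid, potassium returns to the fluid through a channel, and chloride leaves at the basolateral side. The salt that remains is taken up further on, in the distal convoluted tubule, by a sodium chloride cotransporter that thiazide diuretics block. A cascade of kinases, in which WNK proteins activate SPAK and SPAK phosphorylates the cotransporters, sets the activity of both steps. The libraries report mRNA and hold no value for phosphorylation, which is where this cascade acts.

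The libraries held 16510720 to 38124164 reads on genes, with UIRI replicate 3 at 2.04 times the median depth of its 5 companions. On the first principal component, which held 41.8% of the variance, this library lay at 11.1. The other UIRI libraries lay at -32.5 and -25.5. UIRI + BA replicates 1, 2 and 3 lay at 30.5, 3.11 and 13.4, so UIRI replicate 3 fell within the UIRI + BA range, closest to replicate 3. Results that rest on UIRI replicate 3 or UIRI + BA replicate 3 are given with and without them.

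Between UIRI and UIRI + BA, none of the 8 genes differed beyond the spread between replicates. In limma's test, an adjusted p below 0.05 was reached by 0 of 8 (0.0% of all rows), and an unadjusted p below 0.05 by 0 of 8, against 10.3% of all 19176 rows. DESeq2 and edgeR's quasi-likelihood test on recovered reads also placed 0 of 8 below an unadjusted p of 0.05, where DESeq2 placed 7.88% of 19171 rows tested and edgeR 9.93% of 17155. The groups overlapped in each of the 8 genes, whereas they did not overlap in 14.4% of all rows. The fold change (UIRI + BA over UIRI) lay between 0.989 for Bsnd and 1.29 for Slc12a3, above 1 in 6 genes and below 1 in 2. The median log2 fold change of the 8 was 0.09, beside -0.01 over all rows. Every member held at least 320 reads in every library. Values below are normalized counts, which are reads divided by the size factor of the library, unless a level per kilobase is named.

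To show the start regions of the 3 members that the results turn on, the bases just before the annotated start are printed here 5′ to 3′ on the strand of the gene. They come from RefSeq on build GRCm38.p6 and end before the earliest start in RefSeq or GENCODE release M21. The stretch printed for Umod lies at chr7:119479283-119479512 (minus strand), that for Slc12a1 at chr2:125152350-125152504 (plus strand) and that for Slc12a3 at chr8:94328958-94329200 (plus strand). Capitals mark exact matches, on either strand, to the half-site of HNF1 (GTTAAT), a factor of tubule epithelium, to a TATA box (TATAAA) or to a GC box (GGGCGG), and these matches do not overlap.
Umod: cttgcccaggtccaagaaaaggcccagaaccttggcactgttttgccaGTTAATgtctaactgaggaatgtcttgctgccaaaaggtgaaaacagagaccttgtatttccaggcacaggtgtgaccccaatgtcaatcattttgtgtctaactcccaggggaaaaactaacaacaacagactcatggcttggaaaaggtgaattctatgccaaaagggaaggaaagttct
Slc12a1: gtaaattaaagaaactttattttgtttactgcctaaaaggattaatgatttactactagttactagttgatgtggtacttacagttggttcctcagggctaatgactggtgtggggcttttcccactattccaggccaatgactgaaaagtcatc
Slc12a3: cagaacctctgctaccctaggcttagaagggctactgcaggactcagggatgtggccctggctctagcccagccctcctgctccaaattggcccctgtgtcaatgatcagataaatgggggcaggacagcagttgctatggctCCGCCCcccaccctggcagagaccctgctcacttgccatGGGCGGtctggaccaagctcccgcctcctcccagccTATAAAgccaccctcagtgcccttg
Umod held 1 HNF1 half-site, 202 to 197 bases before the RefSeq start, and neither of the other motifs. Slc12a3 held a TATA box from 32 to 27 bases before its start and 2 GC boxes. Slc12a1 held none of the 3 motifs, which says only that these letters do not occur in its window. In windows of 250 bases before the start, GTTAAT was found in 6.43% of 32851 RefSeq promoters, TATAAA in 12.4% and GGGCGG in 32.7%. A match is a description of the sequence, and no binding was measured.

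Umod encodes uromodulin, the protein that thick limb cells secrete in large amounts into urine, and lies at chr7:119462711-119479282 on GRCm38 (GENCODE M21), the build of all gene coordinates given. It read 20477, 13945 and 23261 in the vehicle libraries (replicates 1 to 3, the order used throughout) and 19252, 17338 and 25967 in the BA libraries. UIRI replicate 2 was lowest and UIRI + BA replicate 3 highest, and the groups overlapped. The means were 19228 ± 4782 (SD, n = 3) and 20852 ± 4532 (SD, n = 3). The fold change of Umod was 1.09, with a 95% confidence interval from 0.797 to 1.499 (limma, adjusted p = 0.828).

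Slc12a1 encodes NKCC2, the cotransporter through which sodium, potassium and chloride enter the thick limb cell and the target of loop diuretics (chr2:125152505-125230002). Its normalized counts were 12815, 9604 and 15482 with vehicle and 13154, 11314 and 15401 with BA. As for Umod, UIRI replicate 2 was lowest, and the replicates numbered 3 were the highest of their groups. The fold change was 1.06 (95% interval 0.811 to 1.39, limma adjusted p = 0.864). Without UIRI replicate 2 the log2 fold change turned from 0.09 to -0.10, and that of Umod from 0.13 to -0.09.

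Kcnj1 encodes ROMK, the channel that returns potassium to the tubular fluid in the thick limb and secretes it further down (chr9:32372493-32399197). UIRI libraries read 2065, 1772 and 2755, and UIRI + BA libraries read 2835, 2230 and 2217. The lowest 2 values were both in UIRI, but UIRI replicate 3 lay above 2 of the 3 UIRI + BA libraries. Its fold change was 1.12 (95% interval 0.869 to 1.43, limma adjusted p = 0.727). Without UIRI replicate 3, the deepest library, the log2 fold change of Kcnj1 was 0.33 instead of 0.16, with an unadjusted p of 0.0182 and an adjusted p of 0.122 in limma's fit. This library held the highest UIRI value of Kcnj1, so leaving it out widens the difference. That fit placed 4838 of all rows below an unadjusted p of 0.05 and 962 below an adjusted p of 0.05.

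Bsnd encodes barttin, the subunit that the basolateral chloride channels of the thick limb and distal tubule need (chr4:106483456-106492283). It varied least among the members: 415, 362 and 378 with vehicle and 401, 387 and 355 with BA. The highest library was only 1.17 times the lowest. The fold change of Bsnd was 0.989, and its 95% interval, 0.846 to 1.16, was the narrowest of the 8 (limma adjusted p = 0.963).

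Slc12a3 encodes NCC, the thiazide-sensitive cotransporter that defines the distal convoluted tubule (chr8:94329201-94366214). It read 2793, 3561 and 4611 with vehicle and 6474, 4894 and 3072 with BA. UIRI + BA replicates 1 and 2 lay above every UIRI library, while UIRI + BA replicate 3 lay below all but UIRI replicate 1. The highest library was 2.32 times the lowest, the widest range of the members. The means were 3655 ± 913 (SD, n = 3) and 4813 ± 1702 (SD, n = 3), a fold change of 1.29 with a 95% interval from 0.858 to 1.92 (limma adjusted p = 0.628, exact two-sided permutation p = 0.4, where 0.1 is the smallest p that 3 against 3 can give). This interval does not exclude a difference approaching 1.92-fold. The value rests on single libraries: the log2 fold change of Slc12a3 was 0.36 with all 6, 0.12 once UIRI + BA replicate 1 was left out, 0.18 once UIRI replicate 1 was, 0.54 once UIRI replicate 3 was, and 0.65 once UIRI + BA replicate 3 was (limma adjusted p 0.442 in the last). With both replicates numbered 3 left out, it was 0.84, with an adjusted p of 0.0251 in limma's test on 2 against 2 libraries. In that fit 557 of all rows were called. That fit leaves out the highest UIRI and the lowest UIRI + BA value of Slc12a3, so its p is not evidence of a difference.

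**Figure D1:**
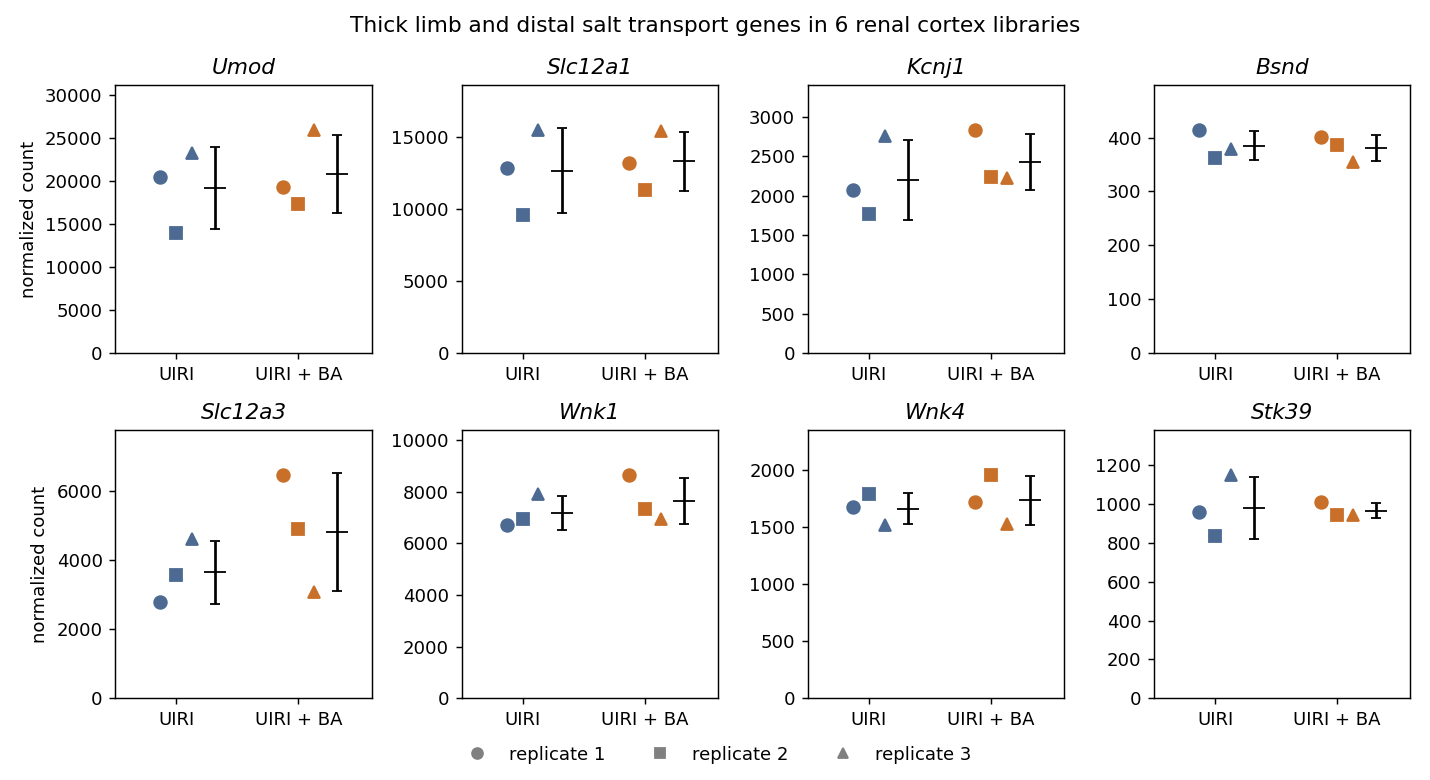
Normalized counts (vertical axes, starting at 0) of the 8 genes in 3 UIRI and 3 UIRI + BA libraries, with marker shape for the replicate number and a bar for the mean ± SD of each group. The groups overlap in every panel, and Slc12a3 spans the widest range, from 2793 in UIRI replicate 1 to 6474 in UIRI + BA replicate 1.

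Wnk1 and Wnk4 encode kinases at the head of the cascade, and in kidney a short form of WNK1 without the kinase domain is made as well. The table gives 1 value per gene, so the forms of Wnk1 could not be told apart. Wnk1 (chr6:119923969-120038672) read 6690, 6922 and 7908 with vehicle and 8648, 7322 and 6939 with BA. Its fold change was 1.06 (95% interval 0.902 to 1.25, limma adjusted p = 0.768). UIRI + BA replicate 1 was the highest library and UIRI replicate 1 the lowest, as for Slc12a3. With both replicates numbered 3 left out, Wnk1 had a log2 fold change of 0.23 instead of 0.09 (limma, unadjusted p 0.0491, adjusted p 0.214). That fit drops the highest UIRI and the lowest UIRI + BA value of Wnk1, so its p is not evidence of a difference. In it, 4440 of all rows had an unadjusted p below 0.05.

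Wnk4 (chr11:101260567-101277409) read 1677, 1788 and 1518 with vehicle and 1720, 1960 and 1533 with BA. Here the replicates numbered 3 were the lowest of their groups, the reverse of Umod and Slc12a1. The fold change of Wnk4 was 1.04 (95% interval 0.885 to 1.23, limma adjusted p = 0.845).

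Stk39 encodes SPAK, the kinase that WNK proteins activate and that phosphorylates NKCC2 and NCC (chr2:68210445-68472268). It read 955, 832 and 1148 with vehicle and 1007, 943 and 942 with BA, so all UIRI + BA values lay inside the UIRI range. Its fold change was 0.994 (95% interval 0.830 to 1.19, limma adjusted p = 0.981). The SD was 16.3% of the mean in UIRI and 3.85% in UIRI + BA. The difference in SD was not tested.

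Levels of the members were compared after division by the length of the longest coding transcript in GENCODE M21. Umod was the most abundant member at 7634 ± 1623 normalized counts per kilobase (SD over the 6 libraries), 54.9 times Bsnd, the least abundant at 139 ± 8.25. Between them followed Slc12a1 at 2735 ± 484, Slc12a3 at 982 ± 319, Kcnj1 at 752 ± 133, Wnk1 at 654 ± 65.6, Wnk4 at 413 ± 40.3 and Stk39 at 275 ± 29.3 normalized counts per kilobase. The order Umod above Slc12a1 above Slc12a3 held in 6 of 6 libraries, with no overlap of the ranges, and so did Wnk1 above Wnk4 above Stk39 above Bsnd. Slc12a3 and Kcnj1 could not be ordered, since Slc12a3 was the higher in 4 of 6 libraries and their ranges overlapped. Kcnj1 and Wnk1 overlapped too, with Kcnj1 higher in 5 of 6. The level of Wnk1 was divided by a transcript of 11330 bases, and a shorter divisor would raise it.

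**Figure D2:**
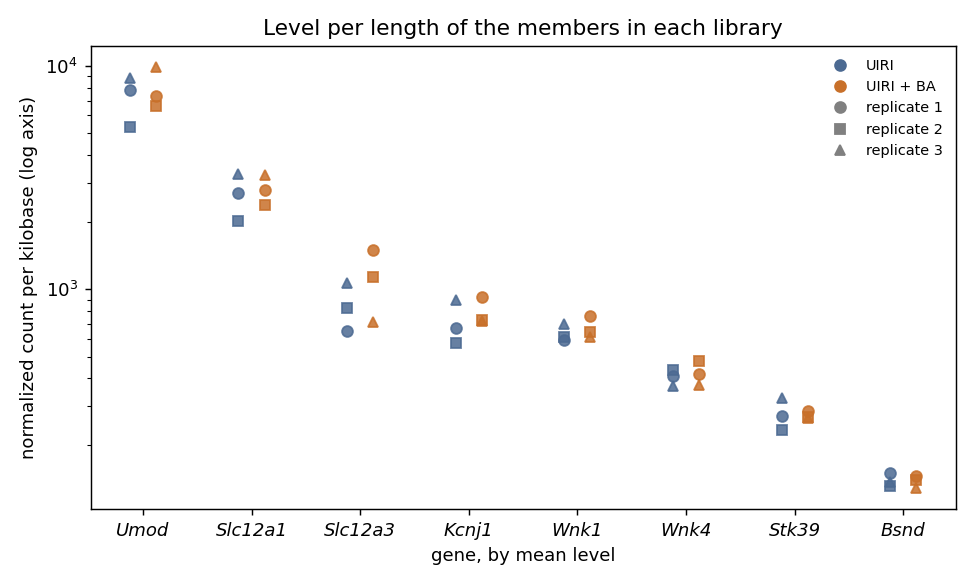
Normalized count per kilobase of transcript (vertical log axis) of the 8 genes in each of the 6 libraries, ordered by mean level, with color for the group and marker shape for the replicate number. Umod and Slc12a1 stand apart above the rest, while Slc12a3, Kcnj1 and Wnk1 overlap between 576 and 1502.

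Ratios within a library do not depend on its size factor, and 3 were compared between the groups. On the log2 scale, Slc12a3 minus Slc12a1 was -2.20, -1.43 and -1.75 with vehicle and -1.02, -1.21 and -2.33 with BA. Slc12a3 therefore counted between 0.199 and 0.492 times Slc12a1, and UIRI + BA held both the highest and the lowest of the 6 ratios. The mean difference was 0.27 (exact two-sided permutation p = 0.6, adjusted over the 3 ratios 0.9). The ratio of Slc12a1 to Umod was the steadiest, from -0.75 to -0.54 on the log2 scale, although the highest library was 1.86 times the lowest for Umod and 1.61 times for Slc12a1. It differed by -0.04 between the groups (exact permutation p = 0.6). Wnk4 minus Wnk1 ranged from -2.38 to -1.90 and differed by -0.03 between the groups (exact permutation p = 1).

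Across the 6 libraries Umod and Slc12a1 followed each other closely. As a description over 6 libraries of 2 groups, Pearson's r of their log2 values was 0.976, which ranked Umod at 3 among 12647 genes averaging 100 normalized counts or more. Rars (r = 0.988) and Grpel2 (r = 0.979) ranked above it. Slc12a3 did not follow Slc12a1 (r = -0.0016). The genes most like Slc12a3 were Bmp2k (r = 0.995), Sowahc (r = 0.994) and Traf3 (r = 0.989), and Wnk1 (r = 0.928) ranked 87. All values of r rest on the same 6 libraries, whose depths and tissue pieces the genes share.

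Slc14a2, the urea transporter of thin limbs and inner medullary collecting duct, was measured in every library although the tissue is labelled renal cortex. It read 620, 235 and 814 with vehicle and 284, 125 and 485 with BA. The replicates numbered 3 were the highest of their groups in Slc14a2, Slc12a1 and Umod, and the replicates numbered 2 were the lowest. The library pattern of Slc12a3 was seen in some other genes of the distal convoluted and connecting tubule, which were picked after their values were seen, and not in others. Calb1, the cytosolic calcium carrier calbindin, read 352, 454 and 844 with vehicle and 1059, 671 and 356 with BA. In Slc12a3, Calb1, Kcnj10 and Tmem52b, UIRI + BA replicate 1 was the highest library of all, and in Trpv5, the apical calcium channel, UIRI + BA replicate 2 was. UIRI + BA replicate 3 was the lowest UIRI + BA library in these 5 genes. Trpm6, the magnesium channel of the distal convoluted tubule, went otherwise, with UIRI + BA replicate 1 as its lowest library, and Egf, the precursor of epidermal growth factor, was highest in UIRI + BA replicate 3. The mean log2 value of a list of 13 collecting duct genes was 8.34, 8.33 and 8.65 with vehicle and 8.80, 8.78 and 8.34 with BA. The part of the piece of tissue sampled in these patterns was not tested, and in bulk tissue fewer cells of a type cannot be told from less RNA per cell.

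**Figure D3:**
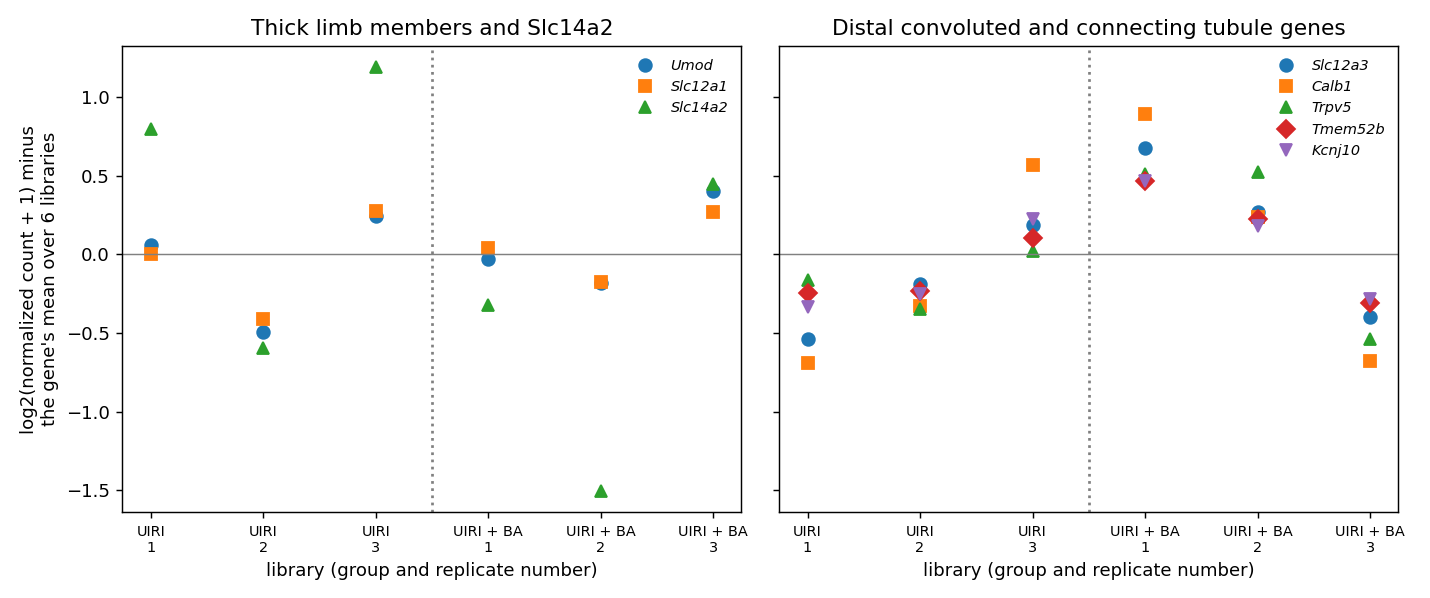
Each point is the log2 of a normalized count plus 1 in 1 library, minus the mean of that gene over the 6 libraries (vertical axis), for Umod, Slc12a1 and Slc14a2 on the left and for Slc12a3, Calb1, Trpv5, Tmem52b and Kcnj10 on the right. UIRI + BA replicate 3 lies above 0 for the genes on the left and below 0 for those on the right, between -0.68 for Calb1 and -0.29 for Kcnj10.

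A list of 61 other genes of thick limb and distal transport was read from the same fit. All 61 were measured, and 0 had an adjusted p below 0.05 from limma. An unadjusted p below 0.05 was found for 7 that were higher with BA and 2 that were lower, where 5.67% and 4.61% of all rows were. Separation without overlap was seen in 5 of the 61, beside 14.4% of all rows. The median log2 fold change was 0.09, with 44 genes above 0 and 17 below. Over all rows the median was -0.01, with 9383 above 0 and 9793 below.

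Among 14 genes of salt entry, potassium recycling and the sodium pump, 5 were higher at an unadjusted p below 0.05 and 0 lower. Kcnj16, a basolateral potassium channel subunit, read 5209, 5099 and 6315 with vehicle and 7366, 6716 and 7189 with BA, with no overlap. Its fold change was 1.28 (limma, unadjusted p 0.00449, adjusted p 0.301). Slc12a7, a potassium chloride cotransporter, counted 1787 ± 96.4 with vehicle and 2124 ± 48.2 with BA (SD, n = 3 each), a fold change of 1.19 (limma adjusted p 0.340). Fxyd2, the gamma subunit of the sodium pump, counted 10036 ± 230.2 and 12061 ± 1014 (SD, n = 3 each), a fold change of 1.199 (limma adjusted p 0.385). The others were Slc9a3, the apical sodium proton exchanger (log2 fold change 0.43), and Atp1b1, the beta subunit of the pump (0.36), both with overlap between the groups and named after their values were seen. Kcnj16, Fxyd2, Slc9a3 and Atp1b1 are also expressed in the proximal tubule. A list of 19 proximal tubule genes moved with them: 17 were higher at an unadjusted p below 0.05 and 0 lower, against 5.67% and 4.61% of all rows. The 17 became 11 to 17 without 1 library and 14 with DESeq2. The summed normalized count of the 19 was 71087 to 92384 in UIRI and 101495 to 165452 in UIRI + BA. Kap, a large part of that sum, read 29077 to 32021 in UIRI and 27223 to 76195 in UIRI + BA, with overlap. In the 6 fits without 1 library, the unadjusted p was below 0.05 in 6 for Kcnj16 and Slc12a7, in 5 for Fxyd2, in 2 for Slc9a3 and in 1 for Atp1b1. Without UIRI replicate 3, a fit that called 962 of all rows, limma's adjusted p was 0.0143 for Kcnj16, 0.0431 for Slc12a7, 0.0398 for Slc9a3, 0.0237 for Atp1b1 and 0.102 for Fxyd2. Without both replicates numbered 3 it was 0.0325 for Kcnj16, 0.0395 for Atp1b1, 0.0788 for Slc12a7, 0.0770 for Slc9a3 and 0.217 for Fxyd2. UIRI replicate 3 was the highest UIRI library in Kcnj16, Slc12a7, Slc9a3 and Atp1b1, so leaving it out widens their difference. The part of the proximal tubule in the higher counts of these genes was not tested.

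Among 14 genes of paracellular and divalent cation transport, 0 had an unadjusted p below 0.05. The log2 fold changes were 0.17 for Cldn10 and -0.03 for Cldn16, claudins of the thick limb. Values were per gene, so the transcript forms of Cldn10 could not be told apart. Casr, the calcium-sensing receptor, had a log2 fold change of 0.40, Trpm6 of 0.00 and Calb1 of 0.30. Calb1 had the widest 95% interval of those named, from -0.60 to 1.199. The value of Casr was 0.22 without UIRI + BA replicate 1 and 0.66 without UIRI replicate 3 (limma, unadjusted p 0.0042, adjusted p 0.0617). UIRI replicate 3 held the highest UIRI value of Casr, so leaving it out widens the difference. Without UIRI + BA replicate 1 the Calb1 log2 fold change was -0.07, and without UIRI + BA replicate 3 it was 0.71. Without both replicates numbered 3 it was 1.07 (limma adjusted p 0.0297). As for Slc12a3, that fit leaves out the highest UIRI and the lowest UIRI + BA value, so its p is not evidence of a difference.

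Among 12 regulators around WNK and SPAK, 0 fell below an unadjusted p of 0.05. Klhl3 and Cul3, which form the ubiquitin ligase that removes WNK kinases, had log2 fold changes of 0.15 (standard error 0.13) and 0.08 (standard error 0.09). Oxsr1, which encodes OSR1, the close relative of SPAK, had 0.12 (standard error 0.12). In the fits without 1 library, the log2 fold change of Oxsr1 was lowest, 0.0393, when UIRI replicate 2 was omitted and highest, 0.27, when UIRI replicate 3 was (limma adjusted p 0.0507). Cul3 ranged between 0.0207 and 0.16 with the same omissions. UIRI replicate 3 was the highest UIRI library in Oxsr1 and Cul3, so leaving it out widens their difference. Klhl3 was lowest, 0.0286, when UIRI + BA replicate 1 was omitted and highest, 0.24, when UIRI + BA replicate 3 was.

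Among 17 genes that mark the thick limb and distal tubule, 2 were higher and 1 lower at an unadjusted p below 0.05. Of all rows, 5.67% were higher and 4.61% lower at this threshold. Egf is made in thick limb and distal convoluted tubule and read 561, 465 and 700 with vehicle and 831, 711 and 925 with BA. All UIRI + BA libraries lay above all UIRI libraries. The fold change of Egf was 1.44, with a 95% interval from 1.13 to 1.83 (limma, unadjusted p 0.00756, adjusted p 0.342, exact two-sided permutation p = 0.1, the smallest possible). In limma's fits without 1 library, its log2 fold change ran from 0.38 to 0.68, and without UIRI replicate 3 its adjusted p was 0.0239. UIRI replicate 3 held the highest UIRI value of Egf, so leaving it out widens the difference. That fit placed 962 of all rows below an adjusted p of 0.05. Emx1, a transcription factor of the distal segments, had a log2 fold change of 0.43, and Ckb, the brain type creatine kinase, of -0.43, both with overlap and named after their values were seen. Of the 6 fits without 1 library, Emx1 passed an unadjusted p of 0.05 in 3 and Ckb in 2, with a log2 fold change of Ckb of -0.65 when UIRI replicate 3 was omitted (limma adjusted p 0.0125) and -0.29 when UIRI replicate 1 was. UIRI replicate 3 held the lowest UIRI value of Ckb, so leaving UIRI replicate 3 out widens that difference too. Of 4 macula densa genes, Ramp3 was lower (log2 fold change -0.48, unadjusted p 0.0200, adjusted p 0.425 from limma), again with overlap. Its unadjusted p was below 0.05 in 3 of the 6 fits without 1 library. Without both replicates numbered 3 limma's adjusted p was 0.0201, in a fit that leaves out its lowest UIRI and highest UIRI + BA value. Nos1, the neuronal nitric oxide synthase of the macula densa, had 14 to 52 reads per library and a log2 fold change of 0.02 (95% interval -0.64 to 0.68).

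**Figure D4:**
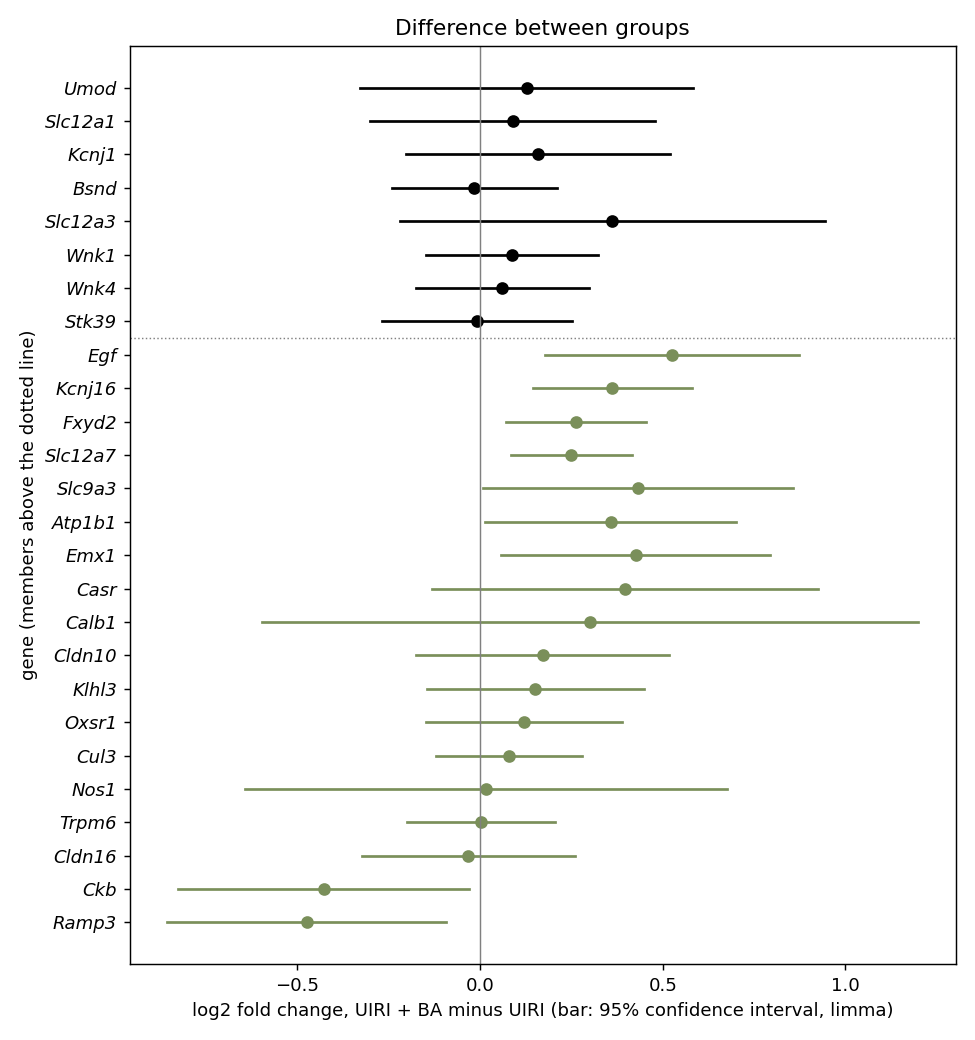
The log2 fold change, UIRI + BA minus UIRI (horizontal axis), of the 8 members (black, above the dotted line) and 18 other genes of the pathway (green), each point with its 95% confidence interval from limma. All 8 member intervals include 0, while those of Egf, Kcnj16, Fxyd2, Slc12a7, Slc9a3, Atp1b1 and Emx1 lie above 0 and those of Ckb and Ramp3 below 0, before any adjustment for the number of genes tested.

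Of 9 urothelium genes, 1 was higher and 0 lower at an unadjusted p below 0.05. The higher gene was Krt20, which the injured tubule list also holds, while the other 8 had log2 fold changes below 0, and the median of the 9 was -1.55. Krt15 read 48.4 to 217 in UIRI and 1.25 to 152 in UIRI + BA, highest in the replicates numbered 3, while Upk2 and Upk3a were at 0 in at least 1 library. The same counts, higher and lower, were 1 and 1 of 13 collecting duct genes, 0 and 1 of 8 inner medulla and thin limb genes, 3 and 3 of 10 injured tubule genes, 0 and 5 of 10 fibroblast genes and 0 and 1 of 10 leukocyte genes. Of skeletal muscle genes 5 of 10 were measured (0 and 2), of adipose genes 1 of 7 (0 and 0) and of adrenal genes 2 of 8 (0 and 1). Over all rows, 5.67% were higher and 4.61% lower at this threshold. The genes named from these lists, those with the highest counts before any division by length, were Kap and Slc27a2 for proximal tubule, Hsd11b2 and Atp6v0d2 for collecting duct, Cryab and Slc5a3 for inner medulla, Krt20 and Krt15 for urothelium, Spp1 and Clu for injured tubule, Col3a1 and Col1a2 for fibroblasts, Cd74 and Lyz2 for leukocytes, Pygm and Mylpf for muscle, Fabp4 for adipose tissue, and Star and Mc2r for the adrenal gland. The part of these cell types in the members' values was not tested.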

How the data were processed

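Poly(A) RNA of renal cortex was sequenced in 6 libraries, grouped by their labels. According to the methods, the authors used HISAT2 for alignment, FeatureCounts for counting and DESeq2 for testing. The methods also name FPKM, which the deposited values are not. The build is not given in the sources used here. The authors deposited a signal per gene and library, which is its count over the size factor of that library, and 100% of values came out as whole reads within 0.01 of a read. The deposited table also gives the authors' log2 fold change and p-value, which were not used, nor were the deposited enrichment tables. The table holds 19176 rows, each with at least 10 reads in total, and 0 columns of library values went unused.

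The main test was limma 3.58.1 (R 4.3.3) on log2 of the value plus 1, with a variance trend, all rows, no covariate and Benjamini-Hochberg adjustment over all rows. DESeq2 1.42.0 and edgeR 4.0.16, each tested with limma on simulated data, were run on recovered reads. Confidence intervals are limma's and are not adjusted. Further fits left out each library or both replicates 3, added a replicate block, rescaled by upper quartile or by quantile normalization, lowered the pseudocount to 0.1, or kept rows at 1 or more in all libraries. Lengths came from GENCODE M21 by symbol, and promoters from RefSeq, where 7 of 8 members matched.

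Members and gene lists were chosen with earlier results of these data known. Genes named were the members, pathway genes with an unadjusted p below 0.05 and no overlap, 10 pathway genes fixed by name (1 more is not reported here), leading genes of the marker lists, and for Slc12a1 and Slc12a3 the 3 genes most like each. Other genes named were chosen after their values were seen. A planned ratio of Pvalb to Slc12a3 was not run.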

Additional observations from a re-analysis of the deposited data

How the results depend on the processing

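No member passed an adjusted p of 0.05 under any alternative with all 6 libraries or with 1 left out. Without both replicates numbered 3, 1 did (Slc12a3), in a fit without its highest UIRI and lowest UIRI + BA value. At an unadjusted p below 0.05 the count of members, 0 with all libraries, was 0 to 1 in the fits without 1 library and 3 without both replicates 3. Over all rows, the count at an adjusted p below 0.05 was 0 with limma, 213 with DESeq2 and 0 with edgeR's quasi-likelihood test (1703 at an unadjusted p below 0.05), 0 to 962 without 1 library (962 without UIRI replicate 3) and 557 without both replicates 3. The count at an unadjusted p, 1971, was 808 to 4838 without 1 library and 4440 without both. In the pathway list the 7 higher genes became 4 to 19 without 1 library (4 without UIRI replicate 1 or UIRI + BA replicate 1, 19 without UIRI replicate 3) and 20 without both replicates 3, and the 2 lower genes became 1 to 3 without 1 library and 4 with upper quartile scaling, DESeq2, edgeR or the replicate block.

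Several signs turned. Without 1 library, the log2 fold change ran from -0.0874 to 0.28 for Umod, -0.10 to 0.25 for Slc12a1, -0.0588 to 0.0386 for Bsnd, -0.0053 to 0.16 for Wnk1, -0.0293 to 0.15 for Wnk4, -0.12 to 0.11 for Stk39, -0.16 to 0.0312 for Cldn16, -0.0094 to 0.29 for Cldn10, -0.0605 to 0.0481 for Trpm6, -0.0706 to 0.71 for Calb1 and -0.21 to 0.19 for Nos1. Without both replicates 3, Bsnd was 0.0227 and Stk39 0.13. Trpm6 was -0.0109 with quantile normalization and -0.0182 with upper quartile scaling, and Nos1 was -0.0027 with upper quartile scaling, -0.0290 with DESeq2 and -0.0410 with edgeR. The group difference of the log2 ratio of Slc12a1 to Umod ran from -0.0843 to 0.0178 without 1 library and was 0.0244 without both replicates 3, and that of Wnk4 to Wnk1 ran from -0.16 to 0.0702 without 1 library. That of Slc12a3 to Slc12a1 ran from 0.0249 to 0.68 without 1 library and was 0.70 without both replicates 3. Of 112 further values of the members, 97 kept their direction and their side of the threshold, 14 turned and 1 passed the threshold. The cause of these moves was not tested.

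The labels do not say whether replicate numbers pair the libraries. Deviations from the group means correlated at -0.24, 0.30 and 0.15 for numbers 1, 2 and 3, and at -0.41 to 0.24 for unlike numbers. With 3 libraries per group, whose deviations sum to 0, this cannot decide whether the numbers pair. With the replicate block, 6 rows had an adjusted p below 0.05 and 0 of the members had an unadjusted p below 0.05. Among the members the lowest count in a library was 320 reads, and each group holds 3 libraries.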
